A study of Arabidopsis thaliana with 8 samples.

Results

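The arrays compared here were those of Arabidopsis seedlings that overexpressed HYPOXIA RESPONSE ATTENUATOR 1 (HRA1) and of wild-type Col-0 seedlings, both after 2 h of hypoxia. They made up 4 of the 8 Affymetrix ATH1 arrays of the series and were chosen by title, 2 for Col-0 (replicates 1 and 2) and 2 for OE-HRA1 (lines 1 and 2, 1 array each). The other 4 arrays held the same genotypes and lines in air for 2 h, and they entered the model as well. All seedlings were 7 d old, were grown on vertical plates of Murashige and Skoog medium with sucrose, and shared the Col-0 background. Hypoxia was given with argon in dim light at the end of the light cycle, and control chambers were in contact with air. OE-HRA1 stands for 35S:HRA1:FLAG, in which the Cauliflower Mosaic Virus 35S promoter drives HRA1 with a FLAG tag in nearly all cells and also in air, and each line descends from a separate insertion event. Title, description and treatment of the Col-0 hypoxia arrays all give hypoxia, but their source name gives air, and they were taken as hypoxic. Nothing in the labels says that the Col-0 replicates were separate cultures, so p-values measure only the spread between these arrays.

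Trihelix proteins are plant transcription factors with a DNA-binding domain of tandem helices, and HRA1 is a member that is induced when oxygen falls. In plants, low oxygen is sensed mainly through group VII ethylene response factors (ERFs), which are degraded while oxygen is present and, once stable, switch on genes of fermentation and sucrose cleavage. A set of such genes that responds in all cell types is known as the core hypoxia genes. Outside that set, hypoxia also touches defence, reactive oxygen, nutrient and growth genes, and those are the main subject below.

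Expression values are robust multichip average (RMA) signals on the log2 scale, so that a signal log2 ratio (SLR) of 1 is a 2-fold difference. An SLR is OE-HRA1 minus Col-0 under hypoxia unless air is named. Values in pairs give replicate 1 before replicate 2 for Col-0 and line 1 before line 2 for OE-HRA1. Of the 22636 probe sets tested, 13422 had a single gene in the platform annotation and 573 took their gene from a supplementary table of genes that the authors had selected as differentially expressed, partly on these arrays. Counts that include the latter are therefore not independent of the result, and values over platform-named members alone are given beside those of the lists. The 26 gene lists held 504 genes, of which 215 had a named probe set. All lists were chosen with earlier results of these data known, so their platform-named members are no independent check either. Listed genes without one were not read, so list counts cover only part of each list. Of the 216 list probe sets 102 had a platform name, and the rest were named through the preselected table. Arrays of a group correlated at 0.994 to 0.997. The Col-0 hypoxia arrays were the least alike, with 128 probe sets more than 1 log2 unit apart, against 27 for the OE-HRA1 hypoxia arrays. HRA1 (AT3G10040) itself read 11.74 and 12.10 in hypoxic Col-0 and 12.19 and 12.02 in hypoxic OE-HRA1, on a probe set that reads both the native and the transgenic transcript. The genotypes overlapped there (SLR 0.18, SE 0.13, adjusted p = 0.436), whereas in air HRA1 read 7.198 and 7.001 in Col-0 and 12.98 and 13.09 in OE-HRA1. HRA1 transcript thus set the lines apart from Col-0 in air, whereas the arrays overlapped after hypoxia.

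More probe sets were lower than higher in hypoxic OE-HRA1 seedlings. With limma across all 8 arrays and a call at |SLR| above 1 and an adjusted p under 0.01, 70 probe sets were higher (0.309% of those tested) and 142 were lower (0.627%), together 0.937%. At an unadjusted p under 0.05 the genotypes differed at 5540. None of the 70 higher probe sets was a core hypoxia gene, whereas 36 of the 142 lower ones were. This left 106 lower probe sets outside the core list, 0.469% of the 22590 tested there, against 0.31% higher. Among platform-named probe sets 32 were higher (0.238%) and 79 lower (0.589%), and among the supplement-named ones 28 (4.89%) and 58 (10.1%). The 4 arrays did not overlap between genotypes at any of the 212 called probe sets, while over all probe sets OE-HRA1 lay wholly above Col-0 at 29.5% and wholly below at 23.9%. The median SLR was 1.37 over the higher probe sets (quartiles 1.203 and 1.68) and -1.29 over the lower ones outside the core list (quartiles -1.56 and -1.15), beside 0.03 over all probe sets. Calls were sensitive to the small number of arrays. With each of the 8 arrays left out in turn, 8 of the 70 higher and 28 of the 106 lower calls outside the core list were kept throughout. In what follows, a call said to be lost without several arrays was lost without each of them on its own. Without the line 2 hypoxia array 16 probe sets were called higher and 55 lower, and without the line 1 hypoxia array 51 and 63.

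**Figure D1:**
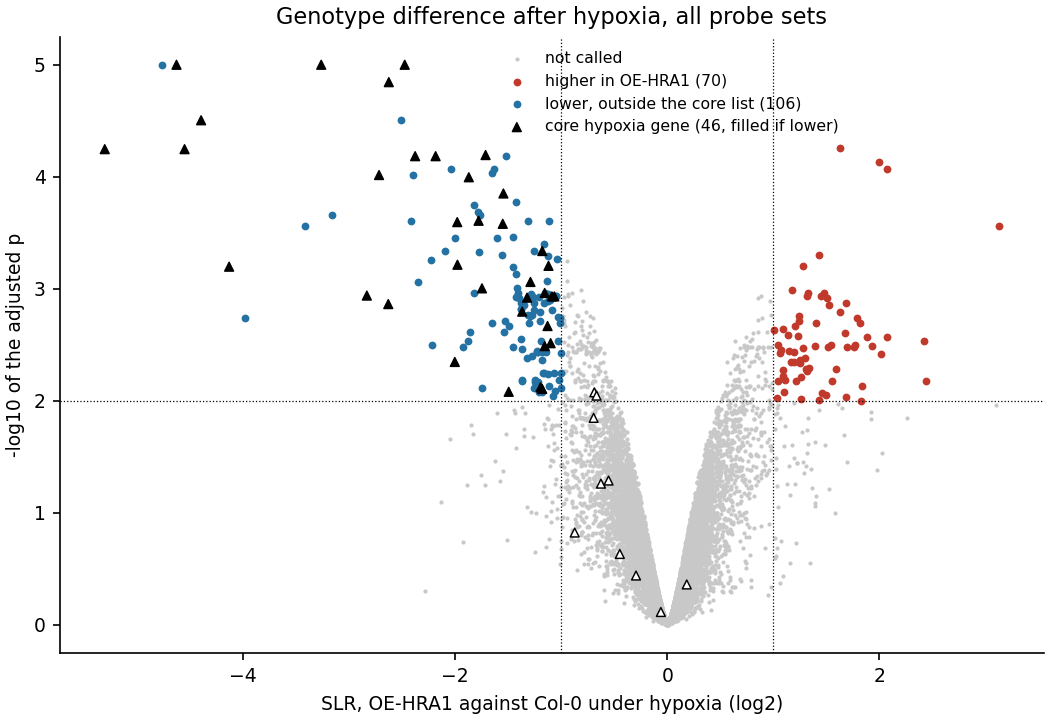
Each point is a probe set, with the SLR of OE-HRA1 against Col-0 under hypoxia (log2) on the horizontal axis and the negative log10 of the adjusted p on the vertical axis; dotted lines mark the thresholds. The 70 higher probe sets (red) hold no core hypoxia gene (triangles), and the 106 lower ones outside the core list (blue) reach to an SLR of -4.76.

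The largest increase in OE-HRA1 was at CRU3 (AT4G28520), which encodes a cruciferin, a globulin stored in seeds. CRU3 read 7.80 and 7.74 on the Col-0 arrays and 10.63 and 11.17 on the OE-HRA1 arrays, with no overlap (SLR 3.13, SE 0.22, adjusted p = 0.000273). OSM34 (AT4G11650), an osmotin-like protein of the thaumatin family, read 10.03 and 10.54 in OE-HRA1 and 7.65 and 8.04 in Col-0 (SLR 2.44, SE 0.35, adjusted p = 0.00669). The spacing between its OE-HRA1 lines was similar to that between its Col-0 replicates, and the lowest OE-HRA1 array stood well above the highest of Col-0. BHLH101 (AT5G04150), a transcription factor induced when iron is short, read 9.16 and 9.75 in OE-HRA1 and 7.40 and 6.69 in Col-0 (SLR 2.42, SE 0.28, adjusted p = 0.00293). CYP71A12 (AT2G30750), a cytochrome P450 of indole-derived defence compounds, was near the bottom of the signal range in Col-0 at 4.29 and 4.45 and read 5.98 and 6.79 in OE-HRA1 (SLR 2.01, SE 0.26, adjusted p = 0.00382). GOLS4 (AT1G60470), a galactinol synthase of the raffinose pathway, read 7.98 and 7.68 in OE-HRA1 and 5.56 and 6.23 in Col-0 (SLR 1.93, SE 0.23, adjusted p = 0.00326). ALMT1 (AT1G08430), a root malate channel, read 8.74 and 8.18 in OE-HRA1 and 6.70 and 6.56 in Col-0 (SLR 1.83, SE 0.27, adjusted p = 0.00731). In each of these genes both lines exceeded both Col-0 replicates, which the rule for naming them required.

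Other large increases were at defence genes and at genes of less certain role. PDF1.2b (AT2G26020), a plant defensin, read 12.08 and 12.42 in OE-HRA1 and 10.82 and 10.03 in Col-0 (SLR 1.82, SE 0.29, adjusted p = 0.00998), but its probes can also detect near-identical defensin genes, so the gene that changed is uncertain. CHI (AT2G43570), a chitinase, read 7.59 and 8.15 in OE-HRA1 and 6.17 and 5.98 in Col-0 (SLR 1.79, SE 0.19, adjusted p = 0.00181). AT5G52760, a heavy metal-associated domain protein, rose under hypoxia in both genotypes and read 7.91 and 8.24 in OE-HRA1 and 5.82 and 6.56 in Col-0 (SLR 1.88, SE 0.21, adjusted p = 0.00267). Proteins with the nucleotide-binding fold of short-chain dehydrogenases are encoded by AT1G54870 and AT1G64590. The former read 8.20 and 7.57 in OE-HRA1 and 5.91 and 5.72 in Col-0 (SLR 2.07, SE 0.24, adjusted p = 0.00267). The latter read 10.26 and 10.10 in OE-HRA1 and 8.21 and 8.17 in Col-0 (SLR 1.99, SE 0.10, adjusted p = 7.36e-05). The AT1G64590 replicates agreed closely in each genotype, and its call was kept without any single array and without either line. AT4G02360, a protein with no assigned function, read 7.53 and 7.56 in OE-HRA1 and 5.70 and 5.75 in Col-0 (SLR 1.82, SE 0.20, adjusted p = 0.00204). The call of CRU3 was also kept without any single array, at an adjusted p of at most 0.00424. For the other increases it depended on the arrays used. BHLH101 (adjusted p up to 0.0297), GOLS4 (adjusted p up to 0.0285), AT5G52760 (adjusted p up to 0.0319) and AT4G02360 (adjusted p up to 0.0264) lost their calls without either OE-HRA1 hypoxia array. CHI (adjusted p up to 0.0118) lost its call without the line 2 hypoxia array. AT1G54870 (adjusted p up to 0.0168) lost its call without the Col-0 hypoxia replicate 2 or the line 1 hypoxia array. CYP71A12 (adjusted p up to 0.0204) lost its call without either Col-0 hypoxia array or the line 2 hypoxia array. OSM34 (adjusted p up to 0.0704) and ALMT1 (adjusted p up to 0.0468) lost their calls without any single array other than those of Col-0 in air. PDF1.2b (adjusted p up to 0.0938) lost its call without the Col-0 hypoxia replicate 2 or any single OE-HRA1 array. With the replicate number as a block, or the line as a random block, PDF1.2b was not called either.

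**Figure D2:**
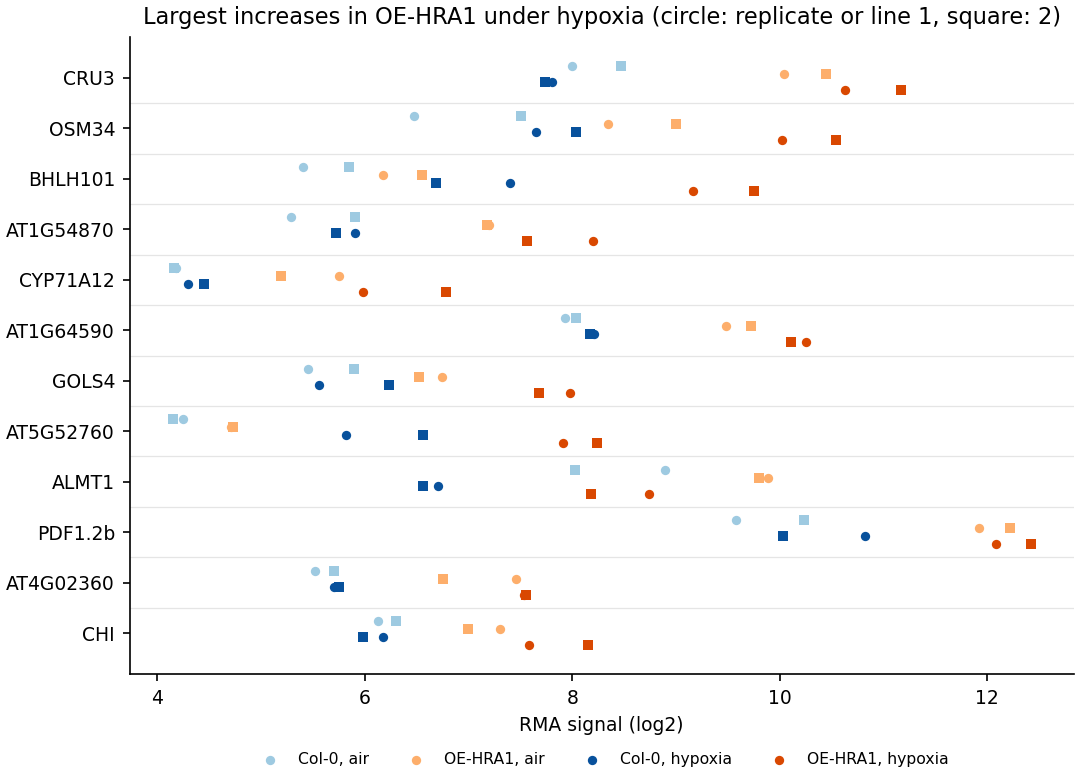
RMA signal (log2) of the 12 named genes with the largest increase in hypoxic OE-HRA1, with 1 point per array (circles: Col-0 replicate 1 or OE-HRA1 line 1; squares: replicate 2 or line 2). The dark orange points (OE-HRA1, hypoxia) lie to the right of the dark blue points (Col-0, hypoxia) in all 12, which the choice of these genes required. At most of them the pale orange points (OE-HRA1, air) lie to the right of the pale blue ones (Col-0, air).

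Seed storage and late embryogenesis genes had SLRs above 0, but few were called. Of 9 probe sets for seed storage and oil body proteins, 2 were called higher, 0 lower and 7 were not called, at a median SLR of 1.19, with 9 of 9 above 0 against 55.8% of all probe sets. The 4 platform-named members had a median of 0.64 and 0 calls. Besides CRU3, the called member was OLEO1 (AT4G25140), the major oleosin that coats seed oil bodies, which read 8.89 and 8.64 in OE-HRA1 and 6.89 and 7.26 in Col-0 (SLR 1.69, SE 0.26, adjusted p = 0.00929). OLEO2, a second oleosin, read 10.44 and 10.11 in OE-HRA1 and 9.05 and 9.12 in Col-0 and did not pass (SLR 1.19, adjusted p = 0.0104). At the storage protein gene PAP85 the genotypes overlapped, at 4.72 and 4.56 in OE-HRA1 and 4.46 and 4.81 in Col-0. Late embryogenesis and desiccation genes numbered 12, of which 1 was called higher and 0 lower (median 0.98; 0.92 over the 9 with a platform name), and 12 of 12 had an SLR above 0. ABR (AT3G02480), a late embryogenesis abundant protein, was the called one, at 11.81 and 11.58 in OE-HRA1 and 10.69 and 10.36 in Col-0 (SLR 1.17, SE 0.15, adjusted p = 0.00454). LEA4-1 (SLR 0.99, adjusted p = 0.0069) and LEA4-2 (SLR 0.92, adjusted p = 0.00717) missed only the SLR threshold. In the glyoxylate cycle, which turns seed oil into sugar in the germinating seedling, ICL (AT3G21720), isocitrate lyase, read 10.19 and 9.98 in OE-HRA1 and 8.81 and 8.80 in Col-0 (SLR 1.28, SE 0.10, adjusted p = 0.000624), while malate synthase, MLS, was not called (SLR 0.75, adjusted p = 0.0405). ICL was the 1 member called of 4 in the list of seed oil use.

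The same lists served as markers of seed tissue, and their values in air are given beside those under hypoxia. The mean signal over the 9 storage and oil body probe sets was 7.34 and 7.54 on the Col-0 hypoxia arrays and 8.72 and 8.55 in OE-HRA1, and in air 7.40 and 7.92 in Col-0 and 8.34 and 8.36 in OE-HRA1. Over the 12 desiccation probe sets it was 7.46 and 7.41 in hypoxic Col-0 and 8.54 and 8.15 in hypoxic OE-HRA1, and in air 7.22 and 7.59 in Col-0 and 8.09 and 8.01 in OE-HRA1. Both list means were higher on each OE-HRA1 array than on either Col-0 array of the same condition. Whether late or ungerminated seeds on those plates had a part in these values was not tested, and in RNA of whole seedlings fewer cells of a type and less RNA per cell cannot be told apart. Shoot markers of photosynthesis were level on all 8 arrays, with list means of 13.95 to 14.05. These means rest on only 3 probe sets, all of high signal, for 14 listed genes. Whether the shoot share of the RNA was equal was not tested. Root markers had means of 8.29 and 8.19 in hypoxic OE-HRA1 and 8.29 and 7.84 in hypoxic Col-0, and ALMT1 was the only 1 of 9 called. The part of seed and root RNA in the other differences was not tested. OLEO1 (adjusted p up to 0.0599) lost its call without any single array other than those of Col-0 in air. ABR (adjusted p up to 0.0365) lost its call without the Col-0 hypoxia replicate 2 or any single OE-HRA1 array. ICL kept its call without any single array.

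Salicylic acid signalling, which is set off by biotrophic pathogens, had called increases at the regulators SARD1 and CBP60G and no called decrease. Of 12 probe sets for 11 genes, 3 (for 2 genes) were called higher, 0 lower and 9 were not called. An SLR above 0 was found at 11 of 12 (median 0.96), against 55.8% of all probe sets. Only 2 of the 12 carry a platform name, with 0 calls, 1 above 0 and a median of 0.26, and the other 10 had been preselected as differentially expressed. In a fit of only the compared groups, or without the line 2 hypoxia array, 0 of the 12 were called. SARD1 (AT1G73805), a transcription factor that switches on salicylic acid synthesis, was read by 2 probe sets. The first gave 8.38 and 8.74 in OE-HRA1 and 6.53 and 7.203 in Col-0 (SLR 1.70, SE 0.21, adjusted p = 0.00331). The other gave 7.26 and 7.28 in OE-HRA1 and 5.38 and 6.06 in Col-0 (SLR 1.55, SE 0.18, adjusted p = 0.00319). CBP60G (AT5G26920), the calmodulin-binding partner of SARD1 in the same step, read 8.25 and 8.55 in OE-HRA1 and 6.82 and 7.19 in Col-0 (SLR 1.40, SE 0.15, adjusted p = 0.00202). ICS1, the isochorismate synthase they act on, read 7.79 and 8.30 in OE-HRA1 and 7.15 and 7.02 in Col-0 and missed both thresholds (SLR 0.96, adjusted p = 0.0113). PR1, the classical marker of the salicylic acid response, read 6.40 and 5.64 in Col-0 and 8.36 and 9.87 in OE-HRA1. Its SLR of 3.095 was close to that of CRU3, but line 2 stood far above line 1 and it missed the threshold (adjusted p = 0.0108). Averaged over the list, the signal was 7.23 and 7.62 in hypoxic Col-0 and 8.41 and 8.69 in hypoxic OE-HRA1. In air the list read 6.52 and 6.59 in Col-0 and 7.07 and 7.12 in the lines. The first SARD1 probe set (adjusted p up to 0.0373) and the second SARD1 probe set (adjusted p up to 0.0355) lost their calls without either OE-HRA1 hypoxia array. CBP60G (adjusted p up to 0.0232) lost its call without the line 2 hypoxia array.

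Early genes of pattern-triggered immunity, which respond within minutes to microbial molecules, were called in both directions. Of 16 probe sets (3 platform-named, 0 higher and 1 lower at a median of -0.27) 2 were called higher, 2 lower and 12 were not called, at a median SLR of 0.15. BAP1 (AT3G61190), a membrane-binding inhibitor of cell death, read 7.81 and 8.17 in OE-HRA1 and 6.59 and 6.84 in Col-0 (SLR 1.28, SE 0.16, adjusted p = 0.00336). PROPEP1 (AT5G64900), the precursor of a danger peptide, read 8.25 and 8.36 in OE-HRA1 and 7.32 and 6.78 in Col-0 (SLR 1.25, SE 0.16, adjusted p = 0.00433). RBOHD, a reactive oxygen-producing NADPH oxidase and a core hypoxia gene, was lower at 11.05 and 11.22 in OE-HRA1 and 12.07 and 12.39 in Col-0 (SLR -1.10, SE 0.13, adjusted p = 0.00306). WRKY22, a defence transcription factor, was lower at 8.87 and 9.15 in OE-HRA1 and 10.04 and 9.996 in Col-0 (SLR -1.005, SE 0.15, adjusted p = 0.00773). WRKY22 lay at the SLR threshold and was not called with median centring of the arrays, a further quantile normalization or the replicate number as a block. CML41 (AT3G50770), a calmodulin-like calcium sensor, was in no list and was the only gene whose rise under hypoxia was called larger in OE-HRA1 than in Col-0. In Col-0 it went from 5.56 and 5.59 in air to 5.78 and 5.69 after hypoxia, and in OE-HRA1 from 5.89 and 5.86 to 7.34 and 7.39, so that both hypoxic lines stood above all other arrays. The SLR between genotypes was 0.30 in air and 1.63 under hypoxia (adjusted p = 5.58e-05), and the interaction, their difference, was 1.33, SE 0.11, adjusted p = 0.00292. The CML41 difference under hypoxia stayed called without any single array, but the interaction lost its call without 6 of the 8 arrays in turn (adjusted p up to 0.031). BAP1 (adjusted p up to 0.0319) lost its call without the Col-0 hypoxia replicate 1 or either OE-HRA1 hypoxia array. PROPEP1 (adjusted p up to 0.0503) lost its call without the Col-0 hypoxia replicate 2 or any single OE-HRA1 array. RBOHD (adjusted p up to 0.0262) lost its call without the Col-0 hypoxia replicate 2 or either OE-HRA1 hypoxia array. WRKY22 (adjusted p up to 0.0501) lost its call without any single array other than those of Col-0 in air.

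Of 6 camalexin and indole defence genes (1 platform-named, 0 higher and 0 lower at an SLR of 1.14), CYP71A12 was called higher, 0 were lower and 5 were not called, at a median SLR of 1.04. PAD3, the last enzyme of camalexin synthesis, read 7.81 and 8.83 in OE-HRA1 and 6.54 and 7.06 in Col-0 (SLR 1.52, adjusted p = 0.0615). CYP79B2, the first, read 9.53 and 10.01 in OE-HRA1 and 8.98 and 8.70 in Col-0 (SLR 0.93, adjusted p = 0.0464). The jasmonate and ethylene branch, which acts against necrotrophs and insects, split. OSM34 and PDF1.2b were higher, while CORI3, a cystine lyase induced by jasmonate, had the largest decrease of any named gene outside the core list, and the other 5 of 8 were not called (median 0.70, and 1.90 over the 4 platform-named members with 2 higher and 0 lower). PDF1.2a, a further defensin, read 10.88 and 11.24 in OE-HRA1 and 9.55 and 8.61 in Col-0 (SLR 1.98, adjusted p = 0.0414). CHIB, a basic chitinase, had an SLR of 0.74 under hypoxia, which was not called, and was higher in air (SLR 2.32, adjusted p = 0.00593). That call was lost without 6 of the 8 arrays in turn (adjusted p up to 0.0446), and the interaction of CHIB was not called (-1.58, SE 0.27, adjusted p = 0.0893).

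Genes of iron and sulfur status were also called in both directions. Of the 5 iron genes (median 0.41, and 1.41 over the 2 platform-named members with 1 higher and 0 lower), BHLH101 was higher and YSL1 (AT4G24120), a transporter of iron chelates, was lower at 7.32 and 7.15 in OE-HRA1 and 8.26 and 8.60 in Col-0 (SLR -1.198, SE 0.12, adjusted p = 0.0016). BHLH39, the closest relative of BHLH101 in the list, read 9.94 and 10.53 in OE-HRA1 and 9.82 and 9.49 in Col-0 and was not called (SLR 0.57, adjusted p = 0.203), nor was PYE, another iron deficiency regulator (SLR 0.41, adjusted p = 0.337). Among 7 sulfur genes (3 platform-named, 1 higher and 1 lower at a median of 0.41) 2 were higher and 2 lower, at a median of 0.47. MGL (AT1G64660), which breaks down methionine, read 9.005 and 8.93 in OE-HRA1 and 7.69 and 7.38 in Col-0 (SLR 1.43, SE 0.11, adjusted p = 0.000496). LSU1 (AT3G49580), a small protein induced by sulfate shortage, read 6.69 and 6.56 in OE-HRA1 and 5.25 and 5.53 in Col-0 (SLR 1.23, SE 0.14, adjusted p = 0.00263). SDI2 (AT1G04770), another marker of sulfate shortage, read 8.81 and 8.73 in OE-HRA1 and 10.14 and 10.26 in Col-0 (SLR -1.43, SE 0.09, adjusted p = 0.000168), while its relative SDI1 had an SLR of 0.98 (adjusted p = 0.0336). SULTR3;1, a sulfate transporter of the chloroplast, read 6.52 and 6.47 in OE-HRA1 and 7.45 and 7.84 in Col-0 (SLR -1.15, SE 0.14, adjusted p = 0.00354). LSU1 and SDI2, both markers of sulfate shortage, thus stood on opposite sides of Col-0 in the same seedlings. MGL and SDI2 stayed called without any single array. YSL1 (adjusted p up to 0.0208) and LSU1 (adjusted p up to 0.0249) lost their calls without either OE-HRA1 hypoxia array. SULTR3;1 (adjusted p up to 0.0403) lost its call without the Col-0 hypoxia replicate 2 or any single OE-HRA1 array.

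In mitochondrial stress and detoxification, 2 of 11 members were higher, 2 lower and 7 were not called (median 0.42, and -0.04 over the 3 platform-named members with 0 higher and 0 lower). CYP81D8 (AT4G37370), a P450 induced by reactive chemicals, read 9.95 and 10.54 in OE-HRA1 and 8.66 and 8.79 in Col-0 (SLR 1.52, SE 0.18, adjusted p = 0.00332). ANAC016 (AT1G34180), a NAC transcription factor, read 6.46 and 7.06 in OE-HRA1 and 5.52 and 5.40 in Col-0 (SLR 1.30, SE 0.17, adjusted p = 0.00412). GSTU17 (AT1G10370), a glutathione transferase, read 8.21 and 8.55 in OE-HRA1 and 10.09 and 10.39 in Col-0 (SLR -1.86, SE 0.21, adjusted p = 0.00243). NDA1 (AT1G07180), an alternative NADH dehydrogenase of mitochondria, read 7.03 and 6.95 in OE-HRA1 and 7.92 and 8.16 in Col-0 (SLR -1.05, SE 0.10, adjusted p = 0.00117). AOX1A, the alternative oxidase that marks mitochondrial retrograde signalling, was not called (SLR 0.88, adjusted p = 0.0489). Sugar starvation genes, 12 in all (2 platform-named, 0 higher and 0 lower at a median of 0.16), had a median of 0.03, with 2 higher, 2 lower and 8 not called. DIN2, a beta-glucosidase induced in darkness, read 5.66 and 6.09 in OE-HRA1 and 4.77 and 4.34 in Col-0 (SLR 1.32, SE 0.18, adjusted p = 0.00539). DIN11, a dioxygenase of the same response, read 7.93 and 8.05 in OE-HRA1 and 7.08 and 6.68 in Col-0 (SLR 1.11, SE 0.16, adjusted p = 0.0065). TPPA (AT5G51460), a trehalose phosphate phosphatase, read 9.19 and 9.28 in OE-HRA1 and 10.34 and 10.43 in Col-0 (SLR -1.15, SE 0.10, adjusted p = 0.00109). GBF2 (AT4G01120), a bZIP factor that binds G-boxes, read 8.03 and 7.997 in OE-HRA1 and 9.20 and 9.08 in Col-0 (SLR -1.13, SE 0.09, adjusted p = 0.000512). DIN6, asparagine synthase and a common marker of the list, had an SLR of -0.51 (adjusted p = 0.522). Of these, GBF2 kept its call without any single array. CYP81D8 (adjusted p up to 0.016) lost its call without either Col-0 hypoxia array or the line 2 hypoxia array. ANAC016 (adjusted p up to 0.0194) lost its call without either Col-0 hypoxia array or either OE-HRA1 air array. GSTU17 (adjusted p up to 0.0221) and NDA1 (adjusted p up to 0.016) lost their calls without the Col-0 hypoxia replicate 2 or either OE-HRA1 hypoxia array. TPPA (adjusted p up to 0.012) lost its call without either OE-HRA1 hypoxia array. DIN2 (adjusted p up to 0.046) lost its call without any single array except the Col-0 hypoxia replicate 1. DIN11 (adjusted p up to 0.0666) lost its call without the Col-0 hypoxia replicate 2 or any single OE-HRA1 array. The replicate block ended the DIN2 call as well.

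Outside the core list the decreases reached further than the increases. The lowest was a probe set without an assigned gene, of the kind whose probes match more than 1 related transcript. This probe set read 6.60 and 6.90 in OE-HRA1 and 11.71 and 11.31 in Col-0 (SLR -4.76, SE 0.14, adjusted p = 1e-05), beside 5.34 and 5.39 in Col-0 in air. Among named genes CORI3 (AT4G23600) read 6.03 and 6.84 in OE-HRA1 and 10.23 and 10.59 in Col-0 (SLR -3.98, SE 0.41, adjusted p = 0.00181), and the lines were farther from each other than the Col-0 replicates. UMAMIT14 (AT2G39510), an amino acid exporter, read 5.96 and 6.07 in OE-HRA1 and 9.85 and 9.003 in Col-0 (SLR -3.41, SE 0.24, adjusted p = 0.000273). AT1G23205, of the inhibitors of invertase and pectin methylesterase, read 6.48 and 6.70 in OE-HRA1 and 9.002 and 9.20 in Col-0 (SLR -2.51, SE 0.11, adjusted p = 3.13e-05). BEE1 (AT1G18400), a helix-loop-helix factor of brassinosteroid growth responses, read 5.57 and 6.01 in OE-HRA1 and 8.22 and 8.16 in Col-0 (SLR -2.39, SE 0.13, adjusted p = 9.55e-05). All 4 hypoxia arrays of each of these were separated by genotype, as at every called probe set, and the naming rule required it of the named genes. AT2G47560, a RING-type ubiquitin ligase, read 6.50 and 6.85 in OE-HRA1 and 9.16 and 8.65 in Col-0 (SLR -2.23, SE 0.18, adjusted p = 0.000551). MGDC (AT2G11810), a synthase of the galactolipid that replaces phospholipid when phosphate is short, read 6.29 and 6.23 in OE-HRA1 and 7.98 and 8.98 in Col-0 (SLR -2.22, SE 0.26, adjusted p = 0.00319) although the Col-0 replicates were themselves well apart. AT4G30380, listed by RefSeq as expansin-like, read 4.99 and 4.91 in OE-HRA1 and 6.95 and 6.96 in Col-0 (SLR -2.002, SE 0.14, adjusted p = 0.000354).

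**Figure D3:**
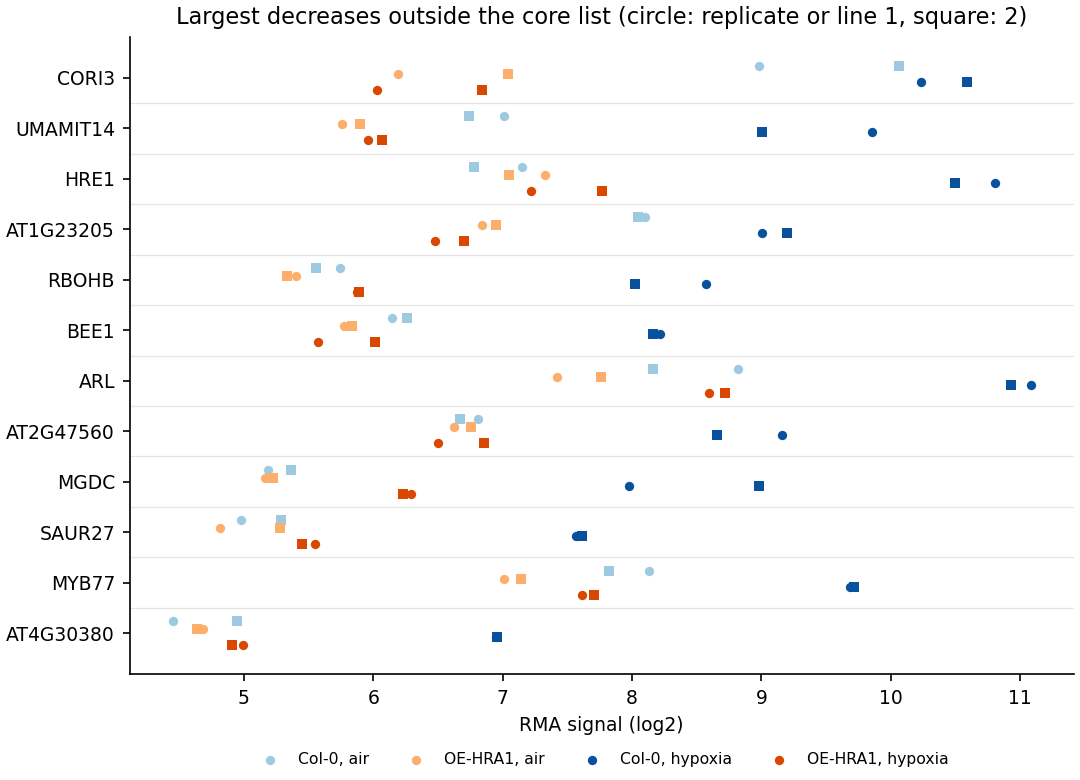
RMA signal (log2) of the 12 named genes outside the core list with the largest decrease in hypoxic OE-HRA1, with 1 point per array (circles: replicate or line 1; squares: replicate or line 2). At most of them the dark blue points (Col-0, hypoxia) stand apart to the right while the dark orange points (OE-HRA1, hypoxia) lie near the pale points of the air arrays.

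The calls of AT1G23205, BEE1 and the unnamed lowest probe set were kept without any single array and without either line, and those of UMAMIT14, AT2G47560 and AT4G30380 without any single array. CORI3 (adjusted p up to 0.0175) and MGDC (adjusted p up to 0.0366) lost their calls without either OE-HRA1 hypoxia array. Among the 106 lower probe sets outside the core list, 47 had a called rise under hypoxia in Col-0 (background 2.02%) and 10 in OE-HRA1 (background 1.95%), and 7 fell under hypoxia in OE-HRA1 (background 1.12%). Their median signal was 7.82 in Col-0 in air, 8.56 in hypoxic Col-0, 7.13 in OE-HRA1 in air and 7.06 in hypoxic OE-HRA1. The hypoxic arrays of each genotype are shared between the induction and the genotype difference, so these values are given side by side only. The 70 higher probe sets had medians of 6.32, 6.97, 7.13 and 8.40 in the same order, with a called rise for 16 in Col-0 and for 34 in OE-HRA1.

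Of 26 listed genes of anaerobic metabolism outside the core list, 7 had a named probe set. Most of these 7 were called lower in OE-HRA1, with 5 lower and 0 higher. Of the 5, PFK3, SUS1 and LDH are enzymes of carbon metabolism, whereas RBOHB and CIPK15 are not. Over all probe sets 0.627% were lower, and over the supplement-named ones 10.1%. The 2 platform-named members had 1 decrease and a median SLR of -0.52, and all 7 a median of -1.197. RBOHB (AT1G09090), an NADPH oxidase, read 5.87 and 5.89 in OE-HRA1 and 8.57 and 8.02 in Col-0 (SLR -2.42, SE 0.16, adjusted p = 0.000247). PFK3 (AT4G26270), a phosphofructokinase of glycolysis, read 7.82 and 7.93 in OE-HRA1 and 9.18 and 9.47 in Col-0 (SLR -1.45, SE 0.12, adjusted p = 0.000635). SUS1 (AT5G20830), a sucrose synthase, read 10.39 and 10.66 in OE-HRA1 and 11.83 and 11.75 in Col-0 (SLR -1.26, SE 0.12, adjusted p = 0.00119). CIPK15 (AT5G01810), whose relative in rice links low oxygen to starch breakdown, read 9.29 and 9.22 in OE-HRA1 and 10.34 and 10.57 in Col-0 (SLR -1.197, SE 0.13, adjusted p = 0.00194). LDH (AT4G17260), the lactate dehydrogenase, read 9.58 and 9.74 in OE-HRA1 and 10.82 and 10.56 in Col-0 and lay near the SLR threshold (SLR -1.03, SE 0.11, adjusted p = 0.00177). In all 5 both lines were below both Col-0 replicates, as at all 142 lower calls and at 23.9% of all probe sets. In air the SLR of these 5 ran from -0.28 at RBOHB to 0.13 at LDH. ASP2, an aspartate aminotransferase, missed only the SLR threshold (SLR -0.93, adjusted p = 0.00449). HRE1 (AT1G72360), a group VII ERF that is itself made under hypoxia, went from 7.15 and 6.78 in air to 10.81 and 10.50 after hypoxia in Col-0, and from 7.32 and 7.05 to 7.22 and 7.77 in OE-HRA1 (SLR under hypoxia -3.16, SE 0.21, adjusted p = 0.000219). HRE1 was thus near its air level in hypoxic OE-HRA1, and its call was kept without any single array and without either line. RBOHB and PFK3 also kept theirs without any single array. SUS1 (adjusted p up to 0.0106) lost its call without the line 1 hypoxia array. CIPK15 (adjusted p up to 0.0259) lost its call without either OE-HRA1 hypoxia array. LDH (adjusted p up to 0.0175) lost its call without the Col-0 hypoxia replicate 1 or either OE-HRA1 hypoxia array. LDH was not called with median centring.

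In the lists of auxin and growth genes, all calls were decreases, and most members were not called. SAUR genes are small auxin-induced RNAs that promote cell expansion. Of 23 listed, 6 had a named probe set, all through the preselected table. Of these 6, 2 were called lower and 0 higher, beside 10.1% lower of the supplement-named probe sets. All 6 were below 0 (median -1.18), where 55.8% of all probe sets were above 0. OE-HRA1 lay wholly below Col-0 at 6 of 6, beside 23.9% of all probe sets and 224 of the 573 supplement-named ones. SAUR27 (AT3G03840) read 5.55 and 5.45 in OE-HRA1 and 7.57 and 7.61 in Col-0 (SLR -2.09, SE 0.16, adjusted p = 0.00046). SAUR66 (AT1G29500) read 6.06 and 6.003 in OE-HRA1 and 6.92 and 7.55 in Col-0 (SLR -1.204, SE 0.18, adjusted p = 0.00838), and near-identical neighbours on the chromosome make the source of its signal less certain. SAUR63 at an SLR of -1.16 (adjusted p = 0.0162) and SAUR65 at -0.88 (adjusted p = 0.0284) were not called. In the list of Aux/IAA, GH3 and related early auxin genes, 2 of 12 were lower, 0 higher and 10 were not called (median -0.54, and -0.19 over the 7 platform-named members with 0 higher and 1 lower). The 2 called were ARL and MYB77, and no Aux/IAA or GH3 gene was called. An SLR above 0 was found at 2 of the 12. ARL (AT2G44080), which promotes cell expansion downstream of brassinosteroid, read 8.59 and 8.72 in OE-HRA1 and 11.08 and 10.93 in Col-0 (SLR -2.35, SE 0.20, adjusted p = 0.000869). MYB77 (AT3G50060), a partner of auxin response factors in lateral roots, read 7.61 and 7.71 in OE-HRA1 and 9.69 and 9.71 in Col-0 (SLR -2.04, SE 0.11, adjusted p = 8.6e-05). IAA4, a repressor of auxin response, was not called (SLR -0.88, adjusted p = 0.0169).

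The list of cell wall loosening genes had no calls. Of 13 expansin and xyloglucan endotransglucosylase probe sets (9 platform-named, 0 higher and 0 lower at a median of 0.03) 0 were called in either direction at a median of 0.03. Their SLRs ran from -1.13 to 2.26, so the extremes passed the SLR threshold and missed that of the adjusted p. With a trend in the prior variance 1 was called higher and 1 lower. The expansin-like AT4G30380, called lower above, was not in this list. EXPA5 had an SLR of -0.83 under hypoxia (adjusted p = 0.00348) and was lower in air (SLR -1.06, adjusted p = 0.00687), a call that was lost without 6 of the 8 arrays in turn (adjusted p up to 0.0701). Cytokinin response genes, 6 in number (2 platform-named, 0 higher and 0 lower at a median of 0.02), had 0 calls and a median of -0.51. The response regulator ARR8 read 5.93 and 5.27 in OE-HRA1 and 7.07 and 7.83 in Col-0 in that list and missed the p threshold (SLR -1.85, adjusted p = 0.0163). In the trihelix family itself 1 of 20 members was lower, 0 were higher and 19 were not called (18 platform-named, 0 higher and 0 lower at a median of -0.24), at a median of -0.24. GTL1 (AT1G33240), which represses the growth of trichome cells, was the called one, at 8.43 and 7.84 in OE-HRA1 and 9.27 and 9.50 in Col-0 (SLR -1.25, SE 0.19, adjusted p = 0.00767), followed by GT2 (SLR -1.07, adjusted p = 0.024) and DF1 (SLR -0.32, adjusted p = 0.133), which were not called. SAUR27 and MYB77 kept their calls without any single array. ARL (adjusted p up to 0.012) lost its call without either OE-HRA1 hypoxia array. SAUR66 (adjusted p up to 0.0753) lost its call without any single array except the Col-0 hypoxia replicate 1. GTL1 (adjusted p up to 0.0342) lost its call without any single array except the line 1 hypoxia array.

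Aliphatic glucosinolate synthesis, which makes sulfur-rich defence compounds of the cabbage family, had 1 of 5 members called lower and 0 higher (median -0.61, and -0.33 over the 2 platform-named members with 0 higher and 0 lower). The list was also lower in air, at a median SLR of -1.07 with 0 calls. MAM3 (AT5G23020), which elongates methionine side chains, read 7.18 and 7.74 in OE-HRA1 and 9.68 and 9.10 in Col-0 (SLR -1.93, SE 0.23, adjusted p = 0.00331), with an SLR in air of -1.88 that was not called. MYB28, the activator of the pathway, was not called (SLR -0.61, adjusted p = 0.129). Of 5 flavonoid genes (median -0.57, and -0.12 over the 3 platform-named members with 0 higher and 0 lower) 2 were lower. MYBL2 (AT1G71030) read 6.69 and 6.87 in OE-HRA1 and 8.21 and 8.26 in Col-0 (SLR -1.46, SE 0.10, adjusted p = 0.000343). MYB4 (AT4G38620) read 8.21 and 8.48 in OE-HRA1 and 9.49 and 9.41 in Col-0 (SLR -1.11, SE 0.11, adjusted p = 0.00126). Both are repressors of phenylpropanoid or anthocyanin genes, and the anthocyanin enzyme DFR was not called (SLR -0.57, adjusted p = 0.298). Among 7 genes of abscisic acid and cold response (median -0.47, and -0.47 over the 3 platform-named members with 0 higher and 0 lower), GOLS4 and HVA22B (AT5G62490), an abscisic acid-induced membrane protein at 9.68 and 9.30 in OE-HRA1 and 8.04 and 8.09 in Col-0 (SLR 1.43, SE 0.23, adjusted p = 0.00993), were higher. CYP707A3, which degrades abscisic acid and is a core hypoxia gene, was lower at 8.88 and 8.71 in OE-HRA1 and 10.0004 and 9.98 in Col-0 (SLR -1.19, SE 0.18, adjusted p = 0.00757). The cold gene COR15A was not called (SLR -1.32, adjusted p = 0.0886). Heat shock (8 probe sets), senescence (5) and ribosome biogenesis (7) had 0 calls. The heat shock mean differed more between the Col-0 hypoxia replicates (6.21 and 7.19) than between them and OE-HRA1 (6.52 and 6.60). MYBL2 kept its call without any single array. MAM3 (adjusted p up to 0.0238) lost its call without either OE-HRA1 hypoxia array. MYB4 (SLR -0.98) lost its call without the line 1 hypoxia array. HVA22B (adjusted p up to 0.0621) and CYP707A3 (adjusted p up to 0.0753) lost their calls without any single array other than those of Col-0 in air. The replicate block also ended the calls of HVA22B and CYP707A3, and a random block of line that of HVA22B.

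**Figure D4:**
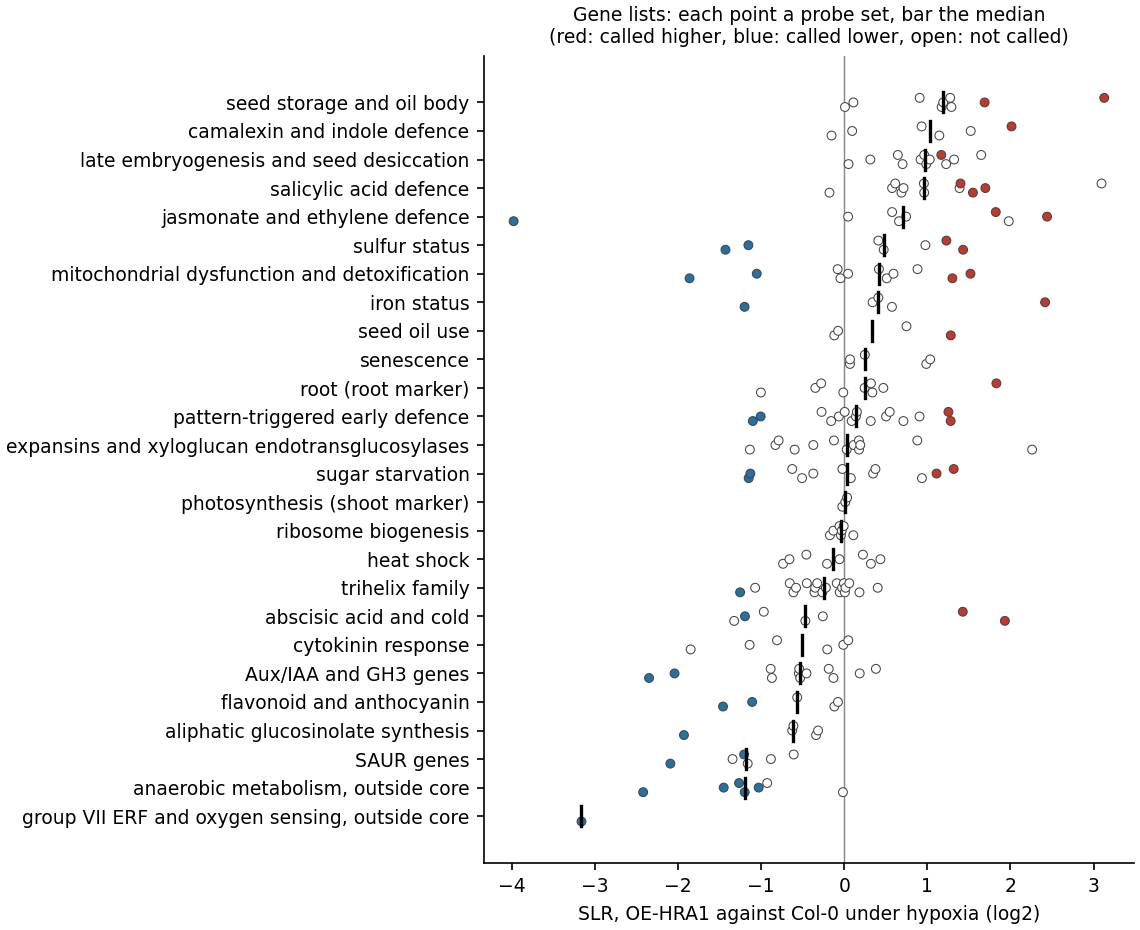
SLR of OE-HRA1 against Col-0 under hypoxia (log2, horizontal axis) for each probe set of 26 gene lists, ordered by list median (black bar); filled points were called higher (red) or lower (blue) and open points were not called. Seed storage genes (median 1.19) stand at the top, and anaerobic genes outside the core list (median -1.197) near the bottom.

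Core hypoxia genes were lower in most cases. Of the 46 marked probe sets, 36 were lower, 0 higher and 10 not called (median -1.43), beside 0.627% lower of all probe sets. Among the 24 with a platform name 19 were lower, at a median of -1.33. The core mark came from the same supplementary table of genes selected as differentially expressed. Neither count is therefore independent of the result. AT5G10040, of no assigned function, had the largest decrease, with 6.66 and 7.48 in OE-HRA1 and 12.39 and 12.35 in Col-0 (SLR -5.30, SE 0.26, adjusted p = 5.67e-05). Next came SUS4, a sucrose synthase, with 7.03 and 7.25 in OE-HRA1 and 11.90 and 11.63 in Col-0 (SLR -4.62, SE 0.16, adjusted p = 1e-05). For AT4G33070, a pyruvate decarboxylase of ethanolic fermentation, the arrays read 8.68 and 9.26 in OE-HRA1 and 13.48 and 13.56 in Col-0 (SLR -4.55, SE 0.22, adjusted p = 5.67e-05). Even so, AT4G33070 in hypoxic OE-HRA1 stayed above its Col-0 air level of 7.29 and 7.63. These 3 calls were kept without any single array and without either line.

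The difference under hypoxia was set beside the difference in air, which rests on other arrays of the same lines. Of the 3 largest core decreases, SUS4 and AT5G10040 had a called interaction. In air 9 probe sets were higher in OE-HRA1 (0.0398%) and 16 lower (0.0707%), together 0.11%. Of the 70 probe sets higher under hypoxia, 66 had an SLR above 0 in air, against 52.9% of all probe sets, and 7 were called there, at a median of 0.77 in air. Of the 106 lower ones outside the core list, 95 were below 0 in air (median -0.50), where 52.9% of all probe sets were above 0. Of the 106, 10 were called lower in air, beside 0.0707% of all probe sets. The 36 lower core probe sets were nearer to 0 in air (median -0.15). Where air and hypoxia differed was tested by the interaction, which was called higher at 1 probe set (0.00442%) and lower at 37 (0.163%), together 0.168%. Lower core genes made up 20 of the 37, and lower probe sets outside the core list 13. In the latter group, besides HRE1, RBOHB, SAUR27, BEE1, AT4G30380, PFK3, SDI2, GBF2 and the unnamed lowest probe set, were 4 genes not described above. CYP96A9, a P450 of the fatty acid hydroxylase family, read 4.85 and 5.08 in OE-HRA1 and 6.75 and 6.72 in Col-0 (SLR -1.77, against 0.08 in air). GAE1, an epimerase that makes a pectin precursor, read 12.18 and 12.19 in OE-HRA1 and 13.29 and 13.32 in Col-0 (SLR -1.12, against -0.02 in air). AT4G24110, of no assigned function, read 8.39 and 8.64 in OE-HRA1 and 10.33 and 10.27 in Col-0 (SLR -1.78, against -0.29 in air). AT2G44770, an ELMO domain protein, read 8.69 and 8.68 in OE-HRA1 and 10.15 and 10.26 in Col-0 (SLR -1.52, against -0.16 in air). The hypoxia call of each was kept without any single array. With 1 array left out in turn, 6 to 34 interactions were called, and 6 to 21 of the 38 were kept. Those of SUS4 and the unnamed probe set were kept throughout and that of AT5G10040 was lost only without the Col-0 air replicate 1 (adjusted p = 0.0102), whereas those of the other genes named in this paragraph were lost without 5 to 8 of the 8 arrays in turn. In air 34 probe sets were called without either Col-0 hypoxia array and 1 to 3 without any other single array, against 25 with all arrays. MAM3 (SLR -1.88, adjusted p = 0.0144) and PDF1.2b (SLR 2.16, adjusted p = 0.0159) were not called in air. ICL was called in air (SLR 1.32, adjusted p = 0.00512), and lost that call without 6 of the 8 arrays in turn (adjusted p up to 0.0446).

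**Figure D5:**
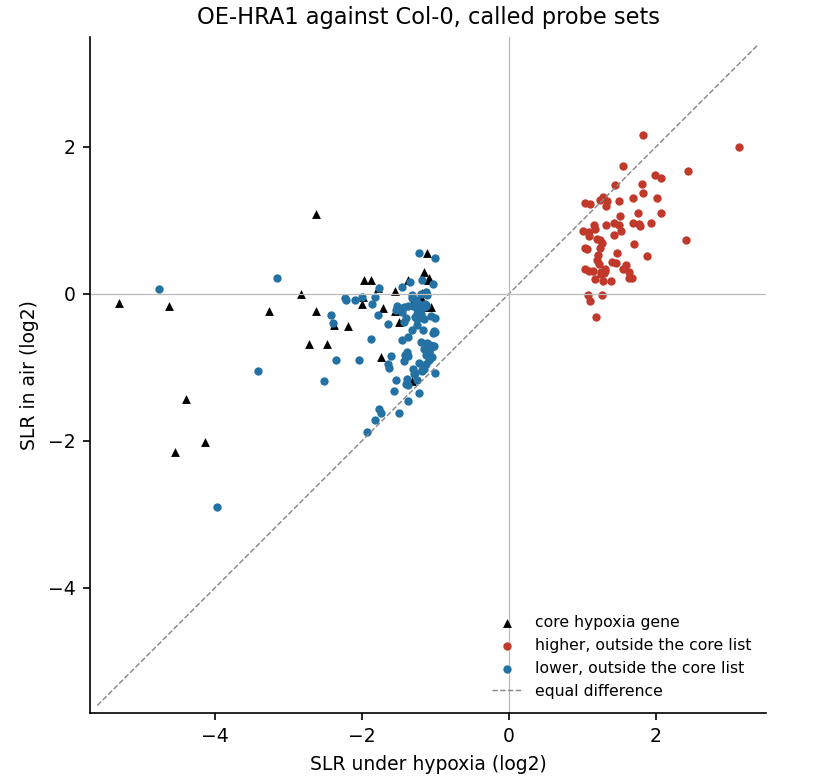
SLR of OE-HRA1 against Col-0 under hypoxia (horizontal axis, log2) and in air (vertical axis, log2) for the 212 called probe sets; the dashed line marks equal differences. Of the 70 red points, 66 lie above 0 on the vertical axis, whereas most core genes (triangles) lie close to 0 on it.

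The lines agreed more closely at lower than at higher probe sets. The median absolute difference between line 1 and line 2 under hypoxia was 0.295 log2 units over the 70 higher probe sets, 0.159 over the 106 lower ones outside the core list and 0.102 over all. The Col-0 replicates differed by 0.219, 0.224 and 0.122. The largest line difference at a called probe set was at FTM1 (AT1G43800), a stearoyl-acyl carrier protein desaturase of the core list, with 5.88 and 7.08 in lines 1 and 2 against 10.44 and 10.78 in Col-0 (SLR -4.13, SE 0.34, adjusted p = 0.000635). AT2G17850, a rhodanese-like protein of the core list, read 8.37 and 9.19 in OE-HRA1 and 11.45 and 11.77 in Col-0 (SLR -2.83, SE 0.26, adjusted p = 0.00115). AT1G15010, of no assigned function, read 8.12 and 8.95 in OE-HRA1 and 7.13 and 6.96 in Col-0 (SLR 1.49, SE 0.23, adjusted p = 0.00887). A further unnamed probe set, also without an assigned gene, read 7.71 and 8.56 in OE-HRA1 and 6.58 and 6.59 in Col-0 (SLR 1.55, SE 0.22, adjusted p = 0.00669). In both, line 2 stood above line 1, and line 1 above both Col-0 replicates. AT1G15010 (adjusted p up to 0.0369) lost its call without any single array except the line 1 hypoxia array. The unnamed probe set (adjusted p up to 0.0258) lost its call without any single array except the line 1 hypoxia array and the line 2 hypoxia array. The block of replicate number ended the AT1G15010 call too, while FTM1 and AT2G17850 kept theirs without any single array.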

How the data were processed

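Total RNA of whole seedlings was measured on 8 ATH1 arrays in 4 groups of 2, grouped by title. The authors normalized with RMA, jointly with arrays of another transgenic line, after MAS5 present calls, and deposited signals on the log2 scale, which were used as given. Probe sets of controls and of recognised organelle genes were dropped, and 22636 were tested. The present-call filter was not repeated. Gene names came from the platform annotation or else from the supplementary tables, which also mark 46 core hypoxia probe sets. In R 4.3.3 with limma 3.58.1 a model of group means without a block (4 residual and 4.15 prior degrees of freedom) gave the genotype differences under hypoxia and in air and their interaction. P-values were adjusted by Benjamini-Hochberg over the 22636, and a call needed |SLR| above 1 with adjusted p under 0.01.

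The comparison, its members and the 26 gene lists (216 probe sets) were chosen with earlier results of these data known. Named were HRA1, the 12 largest called increases and decreases with a gene name outside the core list, called members of each list (up to 8) with up to 3 that were not called, probe sets with a called interaction, the 5 with the largest line difference and 3 core genes. The 12 in each direction were taken only from probe sets whose hypoxia arrays did not overlap between genotypes. PAP85 was added after its values were seen. Alternatives were filters on signal, prior variances, normalizations, blocks, thresholds, fewer groups, platform names only, and leaving out each array or line. On data simulated for the hypoxia comparison, 45 to 49 of 50 changes of each size (SLR 1.5 or 2.0 in either direction) were called, with 2 false calls. The simulated noise was normal, at the observed spread of each probe set, and independent between arrays, unlike that of the real arrays. Only those changes were planted. The run thus checks the code, and its rates need not hold for the real arrays.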

Additional observations from a re-analysis of the deposited data

Results flagged for a closer look

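For 17 named probe sets the genotype difference under hypoxia was not that in air by the interaction of limma (called at |SLR| above 1 and adjusted p under 0.01), and the value given is the SLR under hypoxia minus the SLR in air. At HRA1 itself it was -5.75, with a probe set that reads native and transgenic transcript. Among core genes it was -5.18 for AT5G10040 and -4.46 for SUS4. Outside the core list it was -4.83 for the unnamed lowest probe set, -3.38 for HRE1, -2.14 for RBOHB, -2.003 for SAUR27, -1.99 for BEE1, -1.97 for AT4G30380 and -1.85 for CYP96A9. Smaller values were -1.54 for PFK3, -1.49 for AT4G24110, -1.36 for AT2G44770, -1.25 for SDI2, -1.15 for GBF2 and -1.10 for GAE1. CML41 had the only positive value, 1.33. With 1 array left out in turn, the calls of HRA1, SUS4 and that unnamed probe set were kept in all 8 fits, and the other 14 were lost in 1 to 8 of them.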

How the results depend on the processing

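With all arrays, 70 probe sets were higher and 142 lower in hypoxic OE-HRA1, 106 of the latter outside the core list, 25 differed in air and 38 had a called interaction. The 40% of probe sets with the highest signal gave 21, 76, 48 and 19, with 25 interactions. Platform-named probe sets alone gave 32, 79, 60 and 13, with 17 interactions. A fit of only the compared groups gave 29 higher, 97 lower, 66 outside the core list and 3 in air. Under treat the numbers were 4, 33, 18 and 1, with 6 interactions. An adjusted p under 0.05 gave 108 higher, 181 lower, 71 in air and 61 interactions, and no minimum SLR gave 171 higher, 307 lower and 269 outside the core list. A trend in the prior variance gave 39 in air. With 1 array or 1 line left out, the ranges were 1 to 84 higher, 16 to 166 lower, 7 to 133 lower outside the core list, 1 to 34 in air and 1 to 34 interactions. Such fits have fewer residual degrees of freedom, and the 3 counts under hypoxia were lowest without line 2. The 60% of probe sets with the highest signal, a robust prior variance, quantile normalization, median centring and the line as a random block stayed within 1.5 times each count. The replicate number as a block gave 67 higher, 136 lower, 21 in air and 26 interactions. Same-numbered Col-0 arrays deviated together (correlation 0.374) and so did arrays of a line (0.15), but arrays of Col-0 and OE-HRA1 with the same number did not (-0.0802 under hypoxia, -0.0891 in air), so across genotypes they share only a number. The block ended 6 of the 71 named calls. None of the 71 changed sign. The SLR of PAP85, near 0 and not called, turned from 0.0097 to -0.0555 with quantile normalization, to -0.0691 without the line 1 hypoxia array or line 1, and ranged from -0.1685 (without Col-0 hypoxia replicate 1) to 0.1878 with 1 array left out. The fit of only the compared groups ended 29 of the 71 and treat 48, at unchanged SLRs. A robust prior variance ended the calls of PDF1.2b, OLEO1, HVA22B and AT1G15010, and quantile normalization those of PDF1.2b, WRKY22, NDA1, GTL1 and HVA22B. PR1 and OLEO2 were called higher with the 60% filter, median centring or the trend. Causes of these shifts were not tested. With 2 arrays per group, differences of a gene whose arrays disagree, such as PR1, can be missed.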
